A study of Mus musculus with 54 samples.

Results

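The comparison was that of ZT2, 2 h into the light phase, with ZT22, in the last hours of darkness, so that it spans lights on in the suprachiasmatic nucleus (SCN), the hypothalamic clock of the mammalian brain. It rests on 6 of the 18 libraries of the series, ZT2 replicates A, B and C and ZT22 replicates A, B and C, and covers every gene with a read. Of 30031 genes in the count table, 22208 had at least 1 read in these 6 libraries and 18941 genes of the table passed the filter for testing (at least 1 read in more than 6 of the 18 libraries). Of the 22208 genes, 3378 did not pass it. Both groups were male C3H/HeH wild-type mice aged 10–12 weeks, kept under 12 h of light at 150 lux and 12 h of darkness, housed in groups for 7 days and then singly for 7 days. By their labels they differed in the time of harvest, with 4 h between ZT22 and ZT2. Light exposure and clock time changed together over these hours and cannot be told apart. Each library is a pool of SCN tissue from 5 mice, cut by laser-capture microdissection (LCM) from Nissl-stained sections, so single animals cannot be compared. RNA was amplified before sequencing. The other timepoints (ZT6, ZT10, ZT14 and ZT18, 3 libraries each) enter through the filter, the shared estimate of the spread and the PCA. They also enter through a comparison of 4 h steps and the levels given over the cycle.

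The SCN clock is a transcriptional feedback loop. CLOCK and ARNTL (BMAL1) bind E-box elements and drive the *Per* and *Cry* genes, whose products return to repress them, while REV-ERB and ROR proteins act on *Arntl* through another loop. Output factors such as DBP, HLF and TEF (D-box activators) and BHLHE40 and BHLHE41 (E-box repressors) carry the rhythm to other genes, and peptides such as prokineticin 2 carry it to other cells. Light reaches the SCN through glutamate and PACAP release from the retina, which raises calcium and cAMP and activates CREB at cAMP response elements (CRE). Immediate early genes and *Per1* are known targets of that route.

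The libraries held 17740695, 24551052 and 25527093 counted reads at ZT2 and 27284642, 27568758 and 27991657 at ZT22, so every ZT2 library was shallower than every ZT22 library. In a PCA of log2 CPM (counts scaled by library size, with TMM factors) both timepoints lay in one cluster. The median distance on PC1 and PC2 was 11.6 between ZT2 and ZT22 libraries, 10.4 between libraries of the same timepoint and 67.3 from these libraries to the other 12. Markers of SCN neurons were present in every library, with summed levels of 3430–4889 CPM at ZT2 and 3214–3982 CPM at ZT22, among them *Vip*, *Nms*, *Lhx1* and *Six6*. Other tissue was also present and was uneven. Summed markers of telencephalic excitatory neurons were 1115 and 1011 CPM in ZT22 libraries B and C against 433–544 CPM in the other 4. *Camk2a* (531 and 603 CPM) and *Lamp5* (354 and 241 CPM) were the largest members in B and C. *Slc17a7*, *Neurod2* and *Neurod6* were also higher there. The authors place *Camk2a* among SCN genes that peak at ZT14 and ZT22. SCN neuron markers summed to 3221 and 3214 CPM in ZT22 libraries B and C and to 3982 CPM in A. *Ttr*, the transthyretin gene of the choroid plexus, was at 2048 and 2294 CPM in ZT2 libraries A and B, 79.3 CPM in ZT2 library C, and 0.906, 229 and 192 CPM at ZT22. The ependymal and choroid plexus list as a whole was divided, with 4 of its 8 means higher at ZT2 (not those of *Tmem212*, *Ccdc153*, *Foxj1* and *Rarres2*). In such bulk tissue, fewer cells of a type and less RNA per cell cannot be told apart.

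Crossing from ZT22 to ZT2, 6 genes changed (q under 0.05, edgeR's quasi-likelihood test with Benjamini–Hochberg adjustment), all of them higher at ZT2. They were *Prok2*, *Rasl11b*, *Bhlhe41*, *Fndc9*, *Sik1* and *Rgs16*, and they make up 0.0317% of the genes tested. Promoters that bear letters of clock or CRE motifs are shown first, as examples chosen for holding them. They span from 250 bases before to 50 bases after the annotated start, in the direction of transcription, from RefSeq on GRCm38.p6. Capitals mark the motif found on either strand, an E-box (CACGTG) in *Prok2* (chr6:99726343-99726642, minus strand) and *Bhlhe41* (chr6:145865371-145865670, minus strand), a partial CRE (TGACG, here as its reverse complement) in *Fndc9* (chr11:46235307-46235606, plus strand), and, as an example from the genes just short of the threshold, a full CRE (TGACGTCA) in one of the promoters of *Rcan1* (chr16:92400029-92400328, minus strand).
Prok2: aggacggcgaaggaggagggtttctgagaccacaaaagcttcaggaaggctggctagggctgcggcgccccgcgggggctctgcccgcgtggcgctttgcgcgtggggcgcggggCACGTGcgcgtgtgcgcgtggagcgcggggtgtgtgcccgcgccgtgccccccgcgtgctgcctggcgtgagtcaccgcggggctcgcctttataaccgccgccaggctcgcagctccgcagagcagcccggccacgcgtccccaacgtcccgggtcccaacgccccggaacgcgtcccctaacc
Bhlhe41: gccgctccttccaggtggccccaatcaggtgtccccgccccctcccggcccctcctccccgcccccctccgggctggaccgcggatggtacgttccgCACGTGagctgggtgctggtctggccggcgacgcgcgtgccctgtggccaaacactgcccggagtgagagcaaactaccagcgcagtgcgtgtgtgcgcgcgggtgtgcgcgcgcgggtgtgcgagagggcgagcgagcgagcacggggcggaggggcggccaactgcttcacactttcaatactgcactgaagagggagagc
Fndc9: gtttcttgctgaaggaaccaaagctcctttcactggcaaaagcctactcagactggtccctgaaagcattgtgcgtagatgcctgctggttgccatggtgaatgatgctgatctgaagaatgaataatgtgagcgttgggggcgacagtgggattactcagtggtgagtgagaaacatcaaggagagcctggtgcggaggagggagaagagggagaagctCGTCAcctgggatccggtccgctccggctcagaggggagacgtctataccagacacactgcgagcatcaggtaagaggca
Rcan1: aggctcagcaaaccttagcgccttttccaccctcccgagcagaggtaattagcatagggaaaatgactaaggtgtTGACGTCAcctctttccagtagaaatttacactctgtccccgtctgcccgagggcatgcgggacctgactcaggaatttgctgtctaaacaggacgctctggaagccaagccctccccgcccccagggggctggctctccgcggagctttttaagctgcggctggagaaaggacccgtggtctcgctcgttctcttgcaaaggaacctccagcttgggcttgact
The E-box begins 135 bases upstream of the *Prok2* start and 153 bases upstream of the *Bhlhe41* start, the partial CRE 30 bases upstream of *Fndc9* and the CRE 175 bases upstream of *Rcan1*. The full CRE also contains the shorter motif. *Rasl11b* and *Rgs16* held none of these letters in the window, nor the D-box (TTATGTAA). Promoters were matched for 5 of the 6 called genes (not *Sik1*). Of the 12 matched among the called genes and the next 10 higher at ZT2, 3 held the E-box (*Rcan1* in its other promoter), 2 the CRE (*Rcan1* and *Gm16062*), 3 the partial CRE and 0 the D-box, and *Inpp5f*, *Dbp*, *Pdcd4*, *Fosl2* and *Rorb* held no motif. Among all 12419 tested genes with a promoter, 10.8% held the E-box, 3.16% the CRE, 32.1% the partial CRE and 0.829% the D-box. A match is a description of the sequence and was not tested for binding.

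*Prok2* (chr6:99711299-99726392), which encodes the secreted SCN output peptide prokineticin 2, had the largest change of the 6. It was at 77.1, 168 and 139 CPM in ZT2 libraries A, B and C and at 3.08, 8.56 and 13.6 CPM in the ZT22 libraries. The lowest ZT2 pool was above the highest ZT22 pool by several fold, although the pools of each timepoint also spread widely. The means were 128 ± 46.3 CPM (SD, n = 3) and 8.42 ± 5.27 CPM, with a log2 difference of 3.93 ± 0.50 (SE) and q = 0.00741 in edgeR's test. The 95% interval of the fold ran from 7.30 to 31.6.

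*Bhlhe41* (chr6:145858243-145865558), the E-box repressor also known as DEC2, was at 403, 416 and 353 CPM at ZT2 and 113, 74.8 and 125 CPM at ZT22. The groups were far apart, with a log2 difference of 1.91 ± 0.28 and q = 0.0161 by edgeR. *Rasl11b* (chr5:74195286-74199481), a small GTPase of the RAS-like group, had 139, 155 and 134 CPM at ZT2 and 32.1, 51.4 and 45.01 CPM at ZT22. Its means were 142 ± 11.2 and 42.8 ± 9.81 CPM, and its log2 difference was 1.73 ± 0.23 (edgeR q = 0.00741).

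Genes for regulators of intracellular signalling were also called. *Sik1* (chr17:31844250-31855804), a salt-inducible kinase that phosphorylates the CRTC coactivators of CREB and is itself a CREB target, was at 29.6, 40.6 and 30.8 CPM at ZT2 and 10.1, 8.30 and 11.3 CPM at ZT22. No ZT22 pool came near a ZT2 pool, and the log2 difference was 1.77 ± 0.29 (edgeR q = 0.0394). *Rgs16* (chr1:153740349-153745468), which speeds GTP hydrolysis by Gi proteins and so limits their hold on cAMP, was at 125, 243 and 225 CPM at ZT2 and 82.7, 76.5 and 81.0 CPM at ZT22. The ZT22 pools were almost alike and the ZT2 pools were not, with pool A the lowest of them. The log2 difference of *Rgs16* was 1.31 ± 0.22 (edgeR q = 0.0394).

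*Fndc9* (chr11:46235531-46239872), a gene for a protein with a fibronectin type III domain, was at 163, 219.7 and 204 CPM at ZT2 and 79.2, 55.8 and 80.7 CPM at ZT22. The log2 difference was 1.44 ± 0.22 (edgeR q = 0.0229), and the groups did not overlap. With ZT22 libraries B and C (high telencephalic markers) left out, the log2 differences of the 6 genes lay between 1.26 and 5.38. With the *Ttr*-rich libraries ZT2 A and B left out they lay between 1.49 and 4.05. No gene passed q under 0.05 in these reduced designs (0 called, although 445 and 512 had an unadjusted p under 0.05), in which 1 timepoint has a single library.

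**Figure D1:**
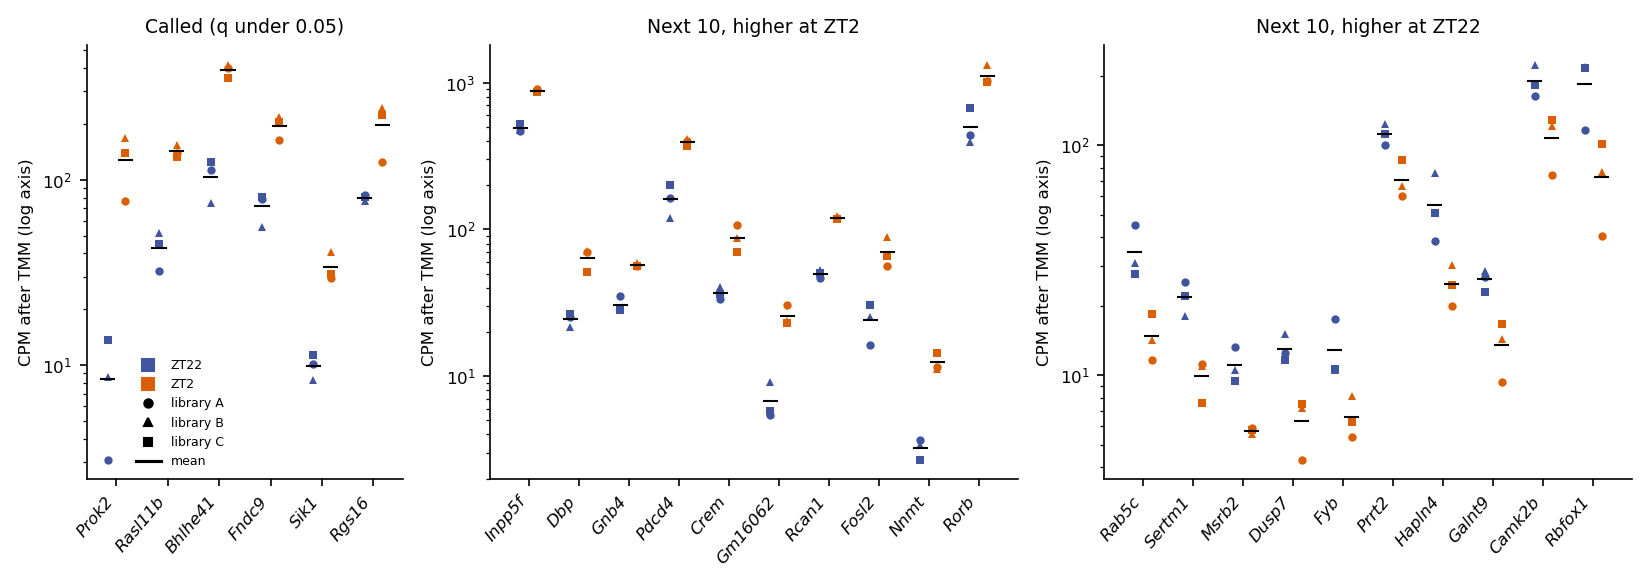
Each point is the level of 1 library in CPM on a log axis, with ZT22 in blue, ZT2 in orange, the shape giving the replicate letter and the black bar the mean of 3, for the 6 called genes and the next 10 genes in each direction. *Prok2* stands furthest apart (77.1–168 against 3.08–13.6 CPM), and the 10 genes higher at ZT22 are separated by smaller steps.

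These calls rested in part on single libraries. The count was 1 without ZT2 replicate B (*Prok2*), ZT22 replicate B (*Rasl11b*) or ZT22 replicate C (*Prok2*). It was 2 without ZT22 replicate A (*Prok2* and *Wipf3*, the latter higher at ZT22) and 17 without ZT18 replicate C, which enters through the shared spread. Over the 18 fits that each leave out 1 library, *Prok2* kept q under 0.05 in 17, *Rasl11b* in 15, *Bhlhe41* and *Fndc9* in 14, *Sik1* in 8 and *Rgs16* in 7. The highest q in those fits was 0.0739 for *Prok2* (without ZT22 replicate B), 0.0672 for *Rasl11b*, 0.23 for *Bhlhe41*, 0.258 for *Fndc9* and 0.341 for *Sik1* and *Rgs16*. limma-voom called 5 of the 6 genes, with *Sik1* missing. A fit to the 6 libraries alone called 0 genes, with 1124 at an unadjusted p under 0.05.

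Genes just short of the threshold were also higher at ZT2. All 16 genes with q under 0.1 were higher at ZT2, as were 19 of the 20 with the smallest p. *Crem*, whose short ICER forms repress at CREs, was at 107, 87.0 and 69.6 CPM at ZT2 and 33.5, 40.6 and 36.1 CPM at ZT22 (log2 difference 1.26 ± 0.23, edgeR q = 0.0731). *Fosl2*, a subunit of AP-1, was at 56.0, 88.7 and 66.1 CPM against 16.3, 25.2 and 30.3 CPM (1.55 ± 0.30, q = 0.0853). *Rcan1*, an inhibitor of the calcium-dependent phosphatase calcineurin, was at 119, 123 and 117 CPM against 46.3, 52.8 and 50.4 CPM (1.26 ± 0.24, q = 0.0755). In none of the 3 did a ZT22 library reach a ZT2 library.

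*Dbp*, the D-box activator, was at 69.8, 70.8 and 51.2 CPM at ZT2 and 25.3, 21.6 and 26.4 CPM at ZT22 (1.39 ± 0.24, edgeR q = 0.0549). It overlaps *Sphk2* on the opposite strand, and without strand the reads of such a pair cannot be told apart. *Rorb*, an orphan nuclear receptor of the ROR family, was at 1033, 1317 and 1006 CPM against 439, 392 and 676 CPM (1.15 ± 0.23, q = 0.0989). *Pdcd4*, which inhibits the translation initiation helicase eIF4A, was at 398, 413 and 371 CPM against 165, 120.4 and 200.3 CPM (1.28 ± 0.23, q = 0.0549). The abundant *Inpp5f*, a phosphoinositide phosphatase gene, had the smallest error of the group, with 908, 876 and 867 CPM against 469, 479 and 523 CPM (0.85 ± 0.15, q = 0.0549). *Gnb4*, a G protein beta subunit, had means of 57.0 and 30.7 CPM, *Nnmt*, nicotinamide N-methyltransferase, 12.4 and 3.24 CPM, and the antisense gene *Gm16062*, which overlaps *Cops3* on the opposite strand, 25.7 and 6.75 CPM (q between 0.0549 and 0.0948). All 10 were separated without overlap, which the rule for naming them required.

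In the other direction edgeR's test called 0 genes, with 379 at an unadjusted p under 0.05. DESeq2's Wald test called 12 genes higher at ZT22, among them all 10 named here. The 10 genes with the smallest p that were higher at ZT22 without overlap, at a mean of at least 5 CPM, had q between 0.359 and 0.717 by edgeR. *Rab5c*, a GTPase of early endosomes, led them with 11.7, 14.2 and 18.5 CPM at ZT2 and 45.0, 30.7 and 27.5 CPM at ZT22 (log2 difference -1.22 ± 0.28). *Sertm1* (means 9.89 and 21.9 CPM), the methionine sulfoxide reductase gene *Msrb2* (5.74 and 11.1 CPM), the MAP kinase phosphatase gene *Dusp7* (6.35 and 13.1 CPM), the immune-cell adaptor gene *Fyb* (6.58 and 12.9 CPM) and the glycosyltransferase gene *Galnt9* (13.5 and 26.1 CPM) were of low abundance at ZT2 and ZT22. From ZT6 to ZT18 the means were 75.9–112 CPM for *Fyb*, 35.9–55.0 CPM for *Msrb2* and 23.5–37.8 CPM for *Dusp7*. Those of *Sertm1* were 17.5–34.2 CPM and those of *Galnt9* 11.5–40.2 CPM.

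The other 4 are neuronal genes. Their ZT22 values were highest in library B or C, those with the high telencephalic markers, as were those of *Dusp7* and *Galnt9*. Without ZT22 libraries B and C the log2 difference moved from -1.04 to -0.97 for *Dusp7* and from -0.95 to -0.99 for *Galnt9*. Without ZT2 libraries A and B these 2 genes were at -0.80 and -0.64. *Rbfox1*, a neuronal splicing regulator, was at 40.3, 76.3 and 101.5 CPM at ZT2 and 116, 219 and 217 CPM at ZT22. *Camk2b*, a subunit of calcium/calmodulin-dependent kinase II, was at 74.0, 122 and 128 CPM against 164, 223 and 182 CPM. *Hapln4*, a link protein of perineuronal nets, was at 20.02, 30.2 and 24.7 CPM against 38.4, 76.0 and 50.5 CPM. The groups are apart in all 3, and so they were in *Prrt2*, a presynaptic gene with means of 71.0 and 112 CPM. With ZT22 libraries B and C left out, the log2 difference moved from -1.34 to -0.68 for *Rbfox1*, from -0.81 to -0.60 for *Camk2b*, from -1.14 to -0.62 for *Hapln4* and from -0.66 to -0.50 for *Prrt2*. That of *Rab5c* moved the other way, from -1.22 to -1.60. Leaving out ZT2 libraries A and B gave -0.86 for *Rbfox1*, -0.56 for *Camk2b*, -1.15 for *Hapln4*, -0.38 for *Prrt2* and -0.90 for *Rab5c*. All 8 telencephalic markers had lower means at ZT2, with a median log2 difference of -1.09 that became 0.18 without ZT22 libraries B and C. At ZT14, *Rbfox1*, *Camk2b* and *Prrt2* had means of 240, 498 and 198 CPM, their highest over the cycle. *Hapln4* had 27.6 CPM there, below its ZT22 mean. The part of the telencephalic markers in the single genes was not tested.

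**Figure D2:**
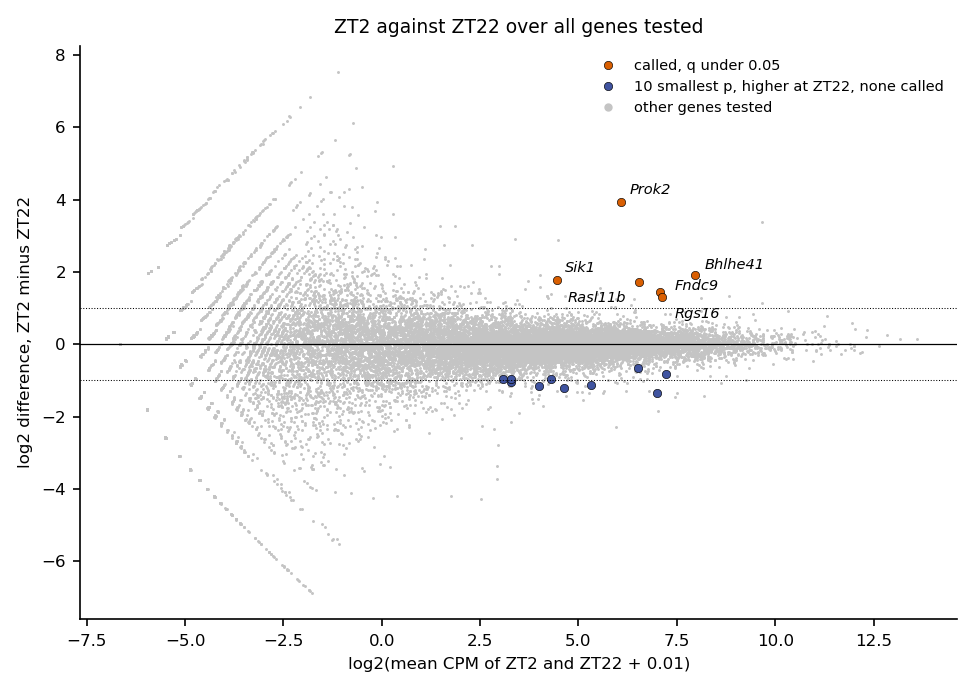
Each point is 1 of 18941 genes, with the mean level of both timepoints (log2 of CPM + 0.01) on the horizontal axis and the log2 difference of ZT2 minus ZT22 on the vertical axis. The 6 called genes (orange) lie above the cloud between 1.31 and 3.93, and the dotted lines mark a log2 difference of 1 either way. The 10 genes of smallest p higher at ZT22 without overlap, at a mean of at least 5 CPM (blue), lie between -0.66 and -1.34.

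Over all genes the timepoints were close. The median log2 difference was -0.01, with quartiles at -0.29 and 0.25, and 9080 of 18941 genes had the higher mean at ZT2. At an unadjusted p under 0.05 there were 301 genes higher at ZT2 (1.59%) and 379 higher at ZT22 (2.00%). All ZT2 libraries lay above all ZT22 libraries in 1069 genes (5.64%), and all ZT22 libraries above all ZT2 libraries in 1132 (5.98%). The median SE of a log2 difference was 0.46, and 0.29 among the 10757 genes with a mean of at least 5 CPM. For 7359 genes (38.9%) the 95% interval lay inside a log2 difference of 1 either way, and for 7125 (66.2%) of those with at least 5 CPM. For the remaining genes the interval from 3 pools a side reached beyond that size. Another 38 genes had reads in all ZT2 and no ZT22 library and 72 the reverse, none with more than 69 reads in a library.

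Of the core clock loop (19 genes, all tested), edgeR's test called 0. At an unadjusted p under 0.05, 7 were higher at ZT2 and none was lower (1.59% and 2.00% of all genes). DESeq2's Wald test called *Per2* and *Rorb*, and *Rorb* was also called by limma-voom, with 10 reads required in every library and with no filter. In 8 genes all ZT2 libraries lay above all ZT22 libraries (5.64% of all genes), and in 16 the mean was higher at ZT2 (9080 of all 18941 genes). The median log2 difference was 0.55, against -0.01 over all genes. The 12 SCN neuron markers, which include *Prok2* and *Rora*, had 11 means higher at ZT2, 5 of them at an unadjusted p under 0.05 (1.59% of all genes). Their median was 0.26, or 0.13 without ZT2 replicate B and 0.43 without ZT2 replicate C. Their part in the clock list was not tested. The median of the clock list lay between 0.39 and 0.57 when any of the 6 libraries, or either doubtful pair, was left out. This list and the others below were written with earlier results of these libraries known, so their counts are descriptions.

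Among the repressors, *Per2* was at 24.4, 25.8 and 29.0 CPM at ZT2 and 6.88, 14.9 and 10.8 CPM at ZT22 (log2 difference 1.28 ± 0.29, edgeR q = 0.309). *Per1*, a period gene that responds to light, had 10.5, 18.5 and 19.1 CPM against 8.99, 8.78 and 9.17 CPM (0.84 ± 0.29, q = 1), with ZT2 library A close to the ZT22 level. *Ciart*, a repressor of CLOCK and ARNTL, was at 60.7, 81.3 and 67.2 CPM against 28.3, 23.5 and 27.6 CPM. All 3 were separated, but none passed the threshold. *Per3* had means of 28.5 and 18.0 CPM, *Cry1* 27.5 and 24.5 CPM, and *Cry2* 49.3 and 51.5 CPM. For *Cry1* the 95% interval of the log2 difference ran from -0.37 to 0.70.

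Among the nuclear receptors of the second loop, *Nr1d2* (REV-ERB beta) was at 120.1, 109 and 98.8 CPM at ZT2 and 55.3, 41.7 and 58.4 CPM at ZT22 (1.08 ± 0.31, edgeR q = 1). *Rora*, which overlaps *Gm15511* on the opposite strand, had means of 275 and 188 CPM. *Nr1d1* (REV-ERB alpha), which overlaps *Thra* on the opposite strand, had 64.4, 315 and 699 CPM at ZT2 and 376, 35.01 and 164 CPM at ZT22, so that its pools spread more within each timepoint than the means differ. Of the activators, *Arntl* had means of 26.5 ± 6.47 and 36.8 ± 9.36 CPM (log2 difference -0.47, 95% interval from -1.02 to 0.07) and *Clock* 73.7 ± 25.5 and 61.3 ± 5.88 CPM (0.27, from -0.25 to 0.78). *Arntl2* had means of 5.71 and 3.46 CPM (0.72, from -0.69 to 2.12) and *Npas2* 4.31 and 3.74 CPM. Among further members, *Fbxl21* had 27.7 and 15.6 CPM (unadjusted p = 0.0295 by edgeR), *Csnk1e* 48.3 and 38.6 CPM and *Csnk1d* 94.7 and 86.4 CPM.

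Of 12 clock output factors and enzymes, edgeR's test called *Bhlhe41* (0.0317% of all genes were called). At an unadjusted p under 0.05, 4 were higher at ZT2 and 1 at ZT22 (1.59% and 2.00% of all genes). The median log2 difference was 0.14, but 0.05 without ZT2 replicate C, 0.22 without ZT2 replicate A, 0.46 with ZT22 libraries B and C left out and 0.32 with ZT2 libraries A and B left out. Those higher were *Bhlhe41*, *Dbp*, *Hlf* (162 ± 8.32 against 111 ± 7.17 CPM) and *Tef* (241 ± 10.9 against 184 ± 16.4 CPM), which include all 3 PAR domain activators of the D-box. *Dbp* was called by DESeq2's Wald test, limma-voom, both other scalings, both other filters and the robust fit, and *Hlf* by DESeq2's Wald test. The gene higher at ZT22 was *Nfil3*, the repressor at the same element, with 3.64 ± 1.36 CPM at ZT2 and 8.96 ± 1.23 CPM at ZT22 (log2 difference -1.30, q = 1 by edgeR).

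Among 25 immediate early genes edgeR's test called 0, and 2 were higher at ZT2 and 2 at ZT22 at an unadjusted p under 0.05 (1.59% and 2.00% of all genes). *Fosl2* was called by DESeq2's Wald test, by limma-voom, with 10 reads required in every library, with no filter and without ZT18 replicate C. The median of the list, 0.14, was -0.0030 without ZT22 replicate B and -0.46 with ZT2 libraries A and B left out. *Fosl2* and *Dusp1* (26.2 ± 3.39 against 13.01 ± 1.99 CPM, overlapping *Ergic1* on the opposite strand) were higher at ZT2 at an unadjusted p under 0.05, and *Homer1* and *Npas4* were higher at ZT22. *Homer1* was at 36.9, 78.2 and 67.6 CPM at ZT22, where libraries B and C again held the higher values, and at 29.7–42.1 CPM at ZT2. *Npas4* was near the limit of detection, with 0.0128 CPM on average at ZT2 and 0.566 CPM at ZT22. *Fos* had 25.1 ± 16.5 CPM at ZT2 and 18.1 ± 7.77 CPM at ZT22 and *Egr1* 37.4 ± 11.3 and 56.7 ± 19.9 CPM. The pools of both overlapped.

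In the CREB and cAMP pathway (23 genes) edgeR's test called *Sik1* (0.0317% of all genes were called). At an unadjusted p under 0.05 *Crem* was also higher at ZT2, and *Adcy1*, a calcium-stimulated adenylyl cyclase, was higher at ZT22 (1.59% and 2.00% of all genes). *Adcy1* had 125, 79.1 and 99.3 CPM at ZT2 and 89.8, 330 and 357 CPM at ZT22, so the difference lay in libraries B and C alone. At ZT14 *Adcy1* was at 206, 202 and 311 CPM. *Crem* was called by DESeq2's Wald test, by limma-voom, with 10 reads in every library, with no filter and without ZT18 replicate B or C. The list's median was 0.14, or 0.08 without ZT22 replicate B. Of 16 RGS genes *Rgs16* was called (0.0317% of all genes). At an unadjusted p under 0.05 *Rgs14* was higher at ZT22 (2.00% of all genes), again through libraries B and C (5.76, 29.1 and 18.3 CPM, against 3.57–6.70 CPM at ZT2). The median of this list was -0.19, or 0.08 with those libraries left out.

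Among 19 SCN neuropeptides *Prok2* was the only one called (0.0317% of all genes were), and the median was -0.09, or 0.23 without ZT22 replicate A. *Avp*, vasopressin, was low at both timepoints, with 8.09, 13.9 and 14.2 CPM at ZT2 and 8.81, 3.12 and 4.19 CPM at ZT22 (log2 difference 1.17, edgeR q = 0.734). *Nms*, neuromedin S, had 339, 326 and 257 CPM against 228, 244 and 189 CPM (0.48, q = 1). The groups overlapped in *Avp* and did not in *Nms*. *Cck* and *Npy* were higher at ZT22 at an unadjusted p under 0.05 (2.00% of all genes were). Their ZT22 values were 18.2, 56.8 and 35.4 CPM and 76.3, 213 and 136 CPM, so library A was close to the ZT2 means of 19.6 and 72.3 CPM. *Vip*, the peptide of the retinorecipient core, was at 1806 ± 623 CPM at ZT2 and 1651 ± 204 CPM at ZT22 (log2 difference 0.13, 95% interval from -0.39 to 0.65) and *Grp*, gastrin-releasing peptide, at 40.2 ± 6.04 and 39.2 ± 14.3 CPM. With ZT22 libraries B and C left out, the log2 difference of *Cck* turned from -0.91 to 0.11 and that of *Npy* moved from -0.97 to -0.08. That of *Avp* moved from 1.17 to 0.46. With ZT2 libraries A and B left out, the log2 difference of *Nms* moved from 0.48 to 0.22 and that of *Vip* turned from 0.13 to -0.60. Of the other members, *Scg2* had means of 7931 and 6629 CPM and *Penk* 74.7 and 81.8 CPM. The remaining 10 (*Adcyap1*, *Cartpt*, *Cort*, *Gal*, *Nmu*, *Nts*, *Pdyn*, *Pnoc*, *Sst* and *Tac1*) had means up to 64.0 CPM and unadjusted p between 0.104 and 0.952 by edgeR.

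On the receiving side edgeR's test called 0 genes, and no other setting called any. Of 24 neuropeptide receptors, *Calcr* was higher at ZT2 (27.9 ± 5.07 against 17.05 ± 0.932 CPM) at an unadjusted p under 0.05. *Avpr1a*, a vasopressin receptor (11.9 ± 2.65 against 25.4 ± 10.4 CPM), and *Sstr1* were higher at ZT22 at that level. Of all genes, 1.59% and 2.00% were higher at ZT2 and at ZT22 at that level. None of 22 glutamate receptor genes reached an unadjusted p under 0.05, and for 10 of them the 95% interval lay inside a log2 difference of 1 either way. Of 18 genes of GABA synthesis, transport and receptors, *Gabrg1* (274 ± 65.5 against 183 ± 33.0 CPM) and *Gad2* (396 ± 57.8 against 312 ± 13.3 CPM) were higher at ZT2 at that level, and *Slc12a5*, the chloride exporter KCC2 (52.4 ± 13.2 against 83.1 ± 12.8 CPM), and *Gabra5* were higher at ZT22. Of 32 ion channel genes *Kcnmb4*, *Cacna1h* and *Kcna1* were higher at ZT22 at that level (2.00% of all genes were). With ZT22 libraries B and C left out, the log2 difference of *Kcna1* turned from -1.07 to 0.18, that of *Gabra5* from -0.84 to 0.05, and that of *Cacna1h* moved from -1.80 to -0.82. With ZT2 libraries A and B left out, that of *Gabrg1* moved from 0.58 to 0.14 and that of *Gad2* from 0.34 to 0.10. The medians of the glutamate receptors (-0.16) and ion channels (-0.17) turned to 0.22 and 0.14 with ZT22 libraries B and C left out.

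Lists of cell maintenance and metabolism leaned towards ZT22 by small amounts, with 0 genes called between ZT2 and ZT22 by edgeR's test or any other setting. Over all genes, 9080 of 18941 had the higher mean at ZT2, and 2.00% were higher at ZT22 at an unadjusted p under 0.05. Of 18 heat shock and cold-inducible genes 3 had the higher mean at ZT2. The chaperone genes *Dnajb1* (25.3 ± 4.74 against 35.8 ± 7.73 CPM), *Dnaja1* and *Hsph1* (170 ± 26.0 against 233 ± 15.7 CPM) had an unadjusted p under 0.05. The list's median log2 difference was -0.32. *Rbm3*, the cold-inducible RNA-binding protein gene, was among those with the higher mean at ZT2 (53.0 ± 7.51 against 39.4 ± 3.503 CPM). Of 23 cholesterol synthesis genes 1 had the higher mean at ZT2, the median was -0.23, and *Msmo1* (212 ± 44.0 against 308 ± 49.6 CPM) and *Fdft1* (236 ± 33.2 against 343 ± 79.0 CPM) had an unadjusted p under 0.05. Glycolysis (2 of 18 higher at ZT2, median -0.19), nuclear-encoded respiratory chain and ATP synthase genes (11 of 82, -0.14), the unfolded protein response (2 of 12, -0.15) and glucocorticoid receptors and response (3 of 15, -0.25) lay on the same side. At an unadjusted p under 0.05, *Herpud1* and *Per1* were higher at ZT2 in the last 2 lists, and *Calr* and *Nr3c2* at ZT22 (1.59% and 2.00% of all genes). The log2 difference of *Nr3c2* was -0.997, or -0.09 with ZT22 libraries B and C left out. Cytosolic ribosomal protein genes lay close to the centre, with 53 of 81 means higher at ZT2 and a median of 0.05, which was -0.04 without ZT2 replicate A and 0.17 without ZT2 replicate C. The 6 lists below the centre kept a negative median under DESeq2's size factors, upper-quartile scaling and each library or pair left out, but its size moved. Without ZT22 replicate A the median was -0.08 for cholesterol synthesis and for the unfolded protein response, and without ZT2 replicate C it was -0.07 for the respiratory chain genes and -0.12 for glycolysis. Genes of one list share pools and pathways and are not independent of each other.

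**Figure D3:**
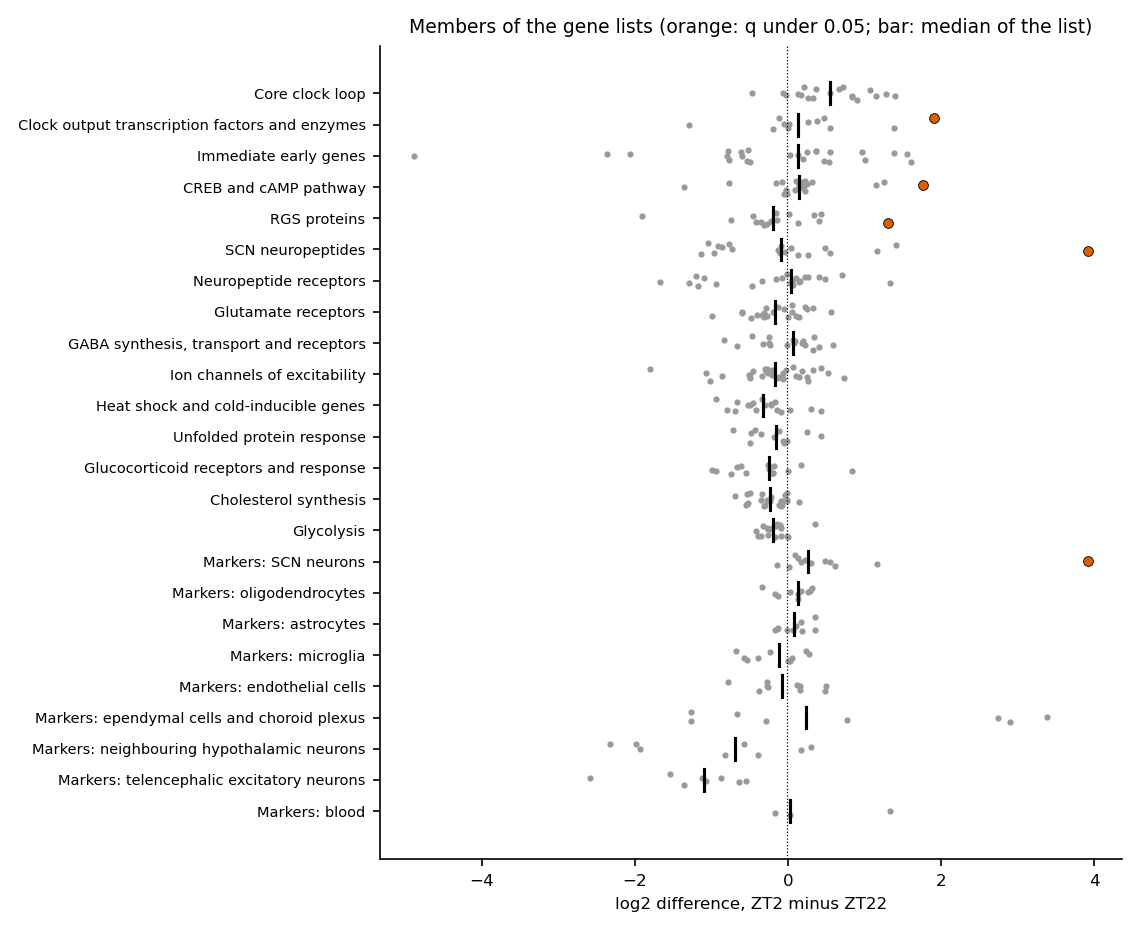
Each point is the log2 difference of 1 gene, ZT2 minus ZT22, in the gene list named on the vertical axis, with called genes in orange, the median of the list as a black bar and the median of all genes (-0.01) as a dotted line. The core clock loop is centred at 0.55, while heat shock and cholesterol synthesis genes sit below 0 with medians of -0.32 and -0.23.

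Over the cycle, 5 of the 6 called genes had their highest mean at ZT6. *Prok2* had means of 8.42, 128, 237, 80.8, 6.79 and 2.26 CPM from ZT22 through ZT2, ZT6, ZT10 and ZT14 to ZT18. *Bhlhe41* had 104, 390.4, 663, 243, 135 and 120.02 CPM in the same order, and *Sik1* 9.89, 33.7, 77.9, 21.8, 11.3 and 9.44 CPM. *Rasl11b* and *Rgs16* reached 223 and 336 CPM at ZT6. *Fndc9* was instead highest at ZT2, with 196 CPM against 109 CPM at ZT6 and 56.4–111 CPM at ZT10 to ZT22. *Inpp5f* (884 CPM at ZT2 and 346–490.3 CPM elsewhere), *Fosl2*, *Crem*, *Rcan1* and *Rorb* were likewise highest at ZT2. ZT6 and ZT10 share another PCA cluster, and ZT14 and ZT18 a further one. The deposited tables also differ for ZT6 and ZT10, where 36.8–47.1% of shared genes had identical reads in both, against 94.7–96.3% at the other timepoints. Across clusters, zeitgeber time cannot be told apart from a sequencing batch with the same layout.

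**Figure D4:**
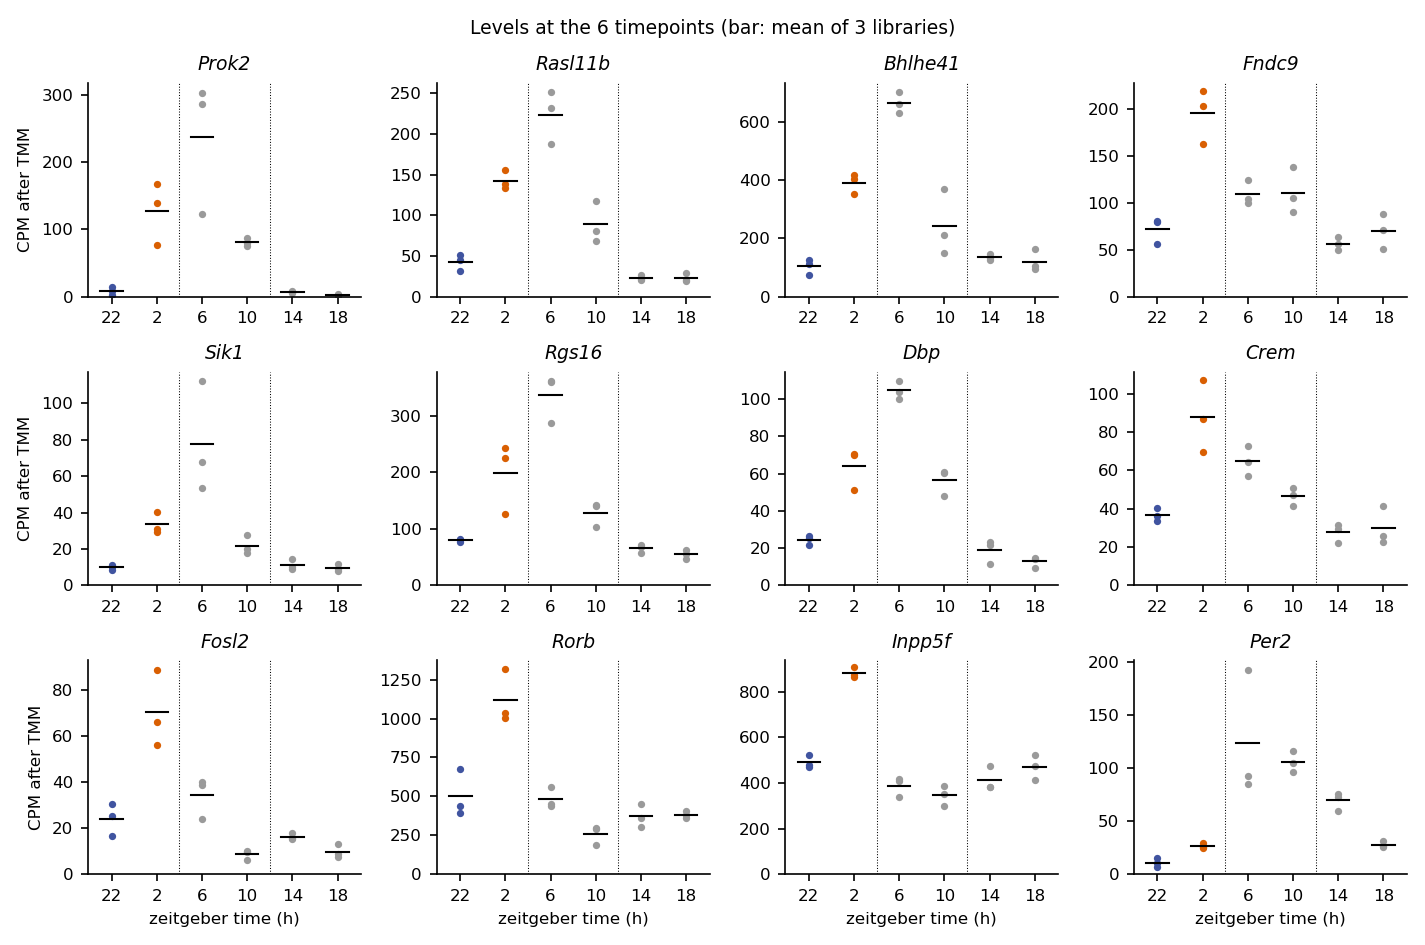
Each panel shows 1 gene, with the level in CPM on a linear axis from 0 and the 6 timepoints in the order ZT22, ZT2, ZT6, ZT10, ZT14 and ZT18, with points for libraries, bars for means of 3 and dotted lines between the clusters of libraries. *Prok2*, *Bhlhe41*, *Sik1*, *Rasl11b* and *Rgs16* climb to ZT6, whereas *Fndc9*, *Inpp5f*, *Fosl2*, *Crem* and *Rorb* are highest at ZT2.

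The step from ZT22 to ZT2 was therefore set against the other 4 h steps that lie inside a cluster, ZT6 to ZT10 and ZT14 to ZT18, in the same fit. The step differed from their mean for 14 genes (0.0739%; edgeR q under 0.05), in each with the higher value for the step across lights on. They comprise 5 of the 6 called genes and *Fosl2*, *Dbp*, *Hlf*, *Pdcd4*, *Per2*, *Per1*, *Rorb*, *Rcan1* and *Prkaa2*. *Prok2* had a difference of steps of 5.48 ± 0.60 on the log2 scale (q = 0.000897), *Fosl2* 2.92 ± 0.37, *Sik1* 2.82 ± 0.36, *Bhlhe41* 2.72 ± 0.34, *Rasl11b* 2.39 ± 0.28 and *Rgs16* 2.13 ± 0.27 (each q = 0.00116). For *Fndc9* it was 1.27 (q = 0.127), so its step was not shown to differ from the others.

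A decline over 1 of the other steps was called in 7 of these genes. *Prok2*, *Bhlhe41*, *Dbp*, *Pdcd4*, *Rcan1* and *Rorb* passed the threshold in neither step. In *Rasl11b*, *Pdcd4*, *Rorb* and *Rcan1* the log2 change from ZT14 to ZT18 lay between 0.02 and 0.13, none of them called. From ZT6 to ZT10 *Fosl2* fell by 2.00 on the log2 scale (edgeR q = 0.02), *Sik1* by 1.83 (q = 0.0228), *Rgs16* by 1.38 (q = 0.0228) and *Rasl11b* by 1.33 (q = 0.0402), where 0.0475% of all genes were called. From ZT14 to ZT18 *Per1* fell by 1.45 (q = 0.0324), *Per2* by 1.32 (q = 0.047) and *Hlf* by 0.72 (q = 0.0309), where 0.570% of all genes were called. Each of these 7 declines lost its call without certain single libraries, with a highest q between 0.129 and 0.228. For *Fosl2*, *Sik1* and *Rgs16* these were libraries of ZT6 or ZT10 alone, while each of the other 4 lost its call also without a library that does not belong to the step. Over all genes, 9 were called from ZT6 to ZT10 and 2 without ZT6 replicate C, and 108 from ZT14 to ZT18 and 0 without ZT14 replicate A. Of the 18 fits that leave out 1 library, the decline kept its call in 14 for *Fosl2*, 13 for *Sik1* and *Rgs16* and 12 for *Hlf*. It did so in 10 for *Per1*, 7 for *Rasl11b* and 6 for *Per2*. A difference of steps therefore holds both the change from ZT22 to ZT2 and any change over the other steps. *Prok2*, *Rasl11b*, *Bhlhe41*, *Sik1*, *Rgs16*, *Fosl2* and *Dbp* kept q under 0.05 in all 18 fits that leave out 1 library. *Hlf* did so in 13, *Pdcd4* in 10, *Per1* and *Per2* in 6, *Rorb* in 5, and *Rcan1* and *Prkaa2* in 4, with highest q of 0.112, 0.138, 0.174, 0.139, 0.183, 0.182 and 0.248. The count was 7 without ZT14 replicate A or ZT2 replicate B, 8 without ZT10 replicate A, ZT18 replicate A, ZT2 replicate C or ZT22 replicate B, 9 without ZT10 replicate B or ZT22 replicate A, and 23 without ZT18 replicate C.

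**Figure D5:**
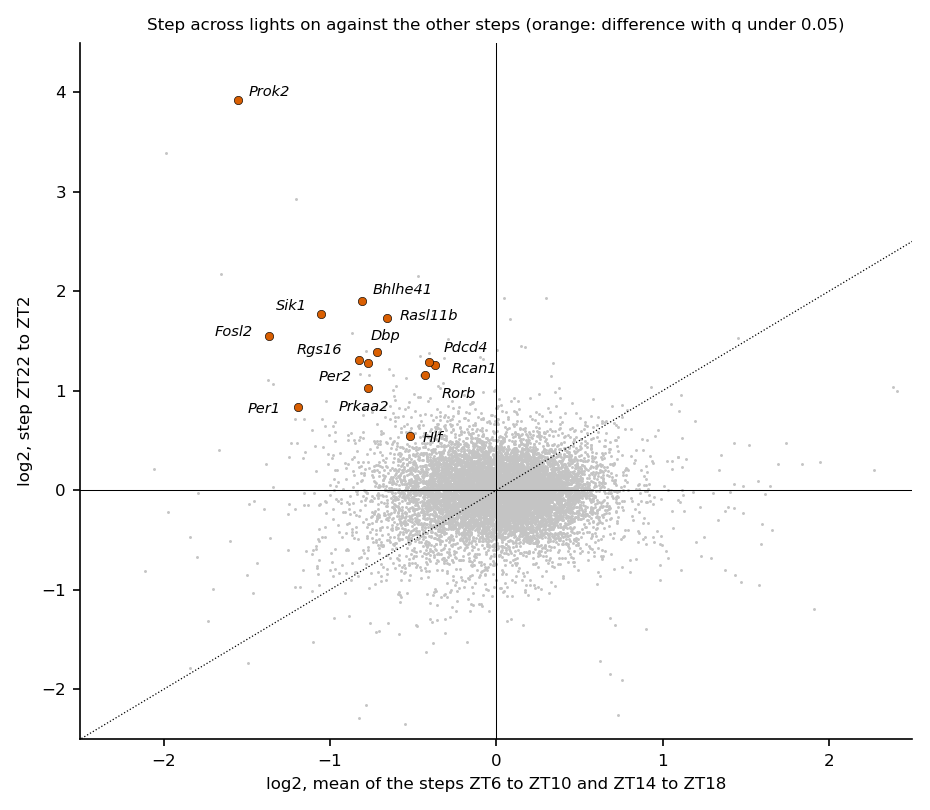
Each point is 1 gene with a mean of at least 5 CPM, with the mean log2 change of the steps ZT6 to ZT10 and ZT14 to ZT18 on the horizontal axis and the log2 change from ZT22 to ZT2 on the vertical axis, and the dotted line where they are equal. The 14 genes in orange lie above that line by 1.07 (*Hlf*) to 5.48 (*Prok2*).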

How the data were processed

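RNA from laser-captured SCN was sequenced at 6 timepoints, with 3 pools of mice per timepoint and 3 lanes per pool (54 lane samples, 18 libraries). After trimming and quality filtering, the authors mapped reads to mm10/GRCm38 with GSNAP and counted them per gene with HTSeq 0.5.4p1. They deposited raw counts of 30031 genes, lanes combined, which were used for every comparison. They also deposited a normalised signal for 31077 genes, the counts divided by size factors from DESeq2. Its values were 100% whole multiples of one step (tolerance 0.1 of a read), and the recovered reads served as an alternative. Of the sample columns, 0 were left unused. Symbols came from GENCODE M21 (97.2% of identifiers).

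Genes were tested if more than 6 libraries held at least 1 read, with edgeR 4.0.16 in R 4.3.3, by a quasi-likelihood fit to all 18 libraries with TMM factors, Benjamini–Hochberg adjustment (q) and a threshold of 0.05. The contrasts were ZT2 minus ZT22, and that step minus the mean of the steps ZT6 to ZT10 and ZT14 to ZT18. Levels are CPM, with SD over n = 3 pools. Separate libraries of a timepoint are separate pools per the labels, so p-values measure the spread between pools, amplification included. Replicates differed by more than sampling noise (chi-square per gene 40.9–96.5). PCA used log2 CPM of the 500 most variable genes. Alternatives were DESeq2 1.42.0, limma 3.58.1 (voom), other scalings and filters, a replicate block, the 6 libraries alone, and libraries left out.

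Named genes are those called, the 10 of smallest p in each direction among further genes with a mean of at least 5 CPM and no overlap between groups, up to 4 of smallest p per gene list (the core clock and neuropeptides in full, except 2 genes not reported here), the 5 of smallest p for the difference of steps and every other gene called there. *Wipf3* was named after its values were seen. Members and lists were chosen with earlier results of these data known. Promoters were taken from RefSeq.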

Additional observations from a re-analysis of the deposited data

Results flagged for a closer look

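The 14 genes below were singled out because their change from ZT22 to ZT2 differed from the mean of the steps ZT6 to ZT10 and ZT14 to ZT18 in edgeR's quasi-likelihood test (q under 0.05). In every case the value was higher for the step across lights on. On the log2 scale the difference of steps was 5.48 for *Prok2*, 2.92 for *Fosl2*, 2.82 for *Sik1*, 2.72 for *Bhlhe41*, 2.39 for *Rasl11b*, 2.13 for *Rgs16*, 2.11 for *Dbp*, 2.05 for *Per2*, 2.03 for *Per1*, 1.80 for *Prkaa2* (the catalytic alpha 2 subunit of AMP-activated kinase), 1.69 for *Pdcd4*, 1.63 for *Rcan1*, 1.58 for *Rorb* and 1.07 for *Hlf*. *Per1*, *Per2*, *Hlf*, *Prkaa2*, *Fosl2*, *Dbp*, *Pdcd4*, *Rcan1* and *Rorb* were not called by edgeR's test in the comparison of ZT2 with ZT22 itself, where their q lay between 0.0549 (*Dbp* and *Pdcd4*) and 1 (*Per1*). There DESeq2's Wald test called 8 of these 9, all but *Per1*. Of the 14, 11 had their highest mean at ZT6 and 3 (*Fosl2*, *Rcan1* and *Rorb*) at ZT2.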

How the results depend on the processing

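The direction of the 6 called genes held in every alternative run, while their number did not. DESeq2's Wald test called 42 genes (30 higher at ZT2) and 108 for the difference of steps (75 with the higher value across lights on), and a filter of 10 reads in every library called 16 and 24. DESeq2's size factors called 10, limma-voom 12 (without *Sik1*), no filter 14 and a robust fit 10. The 6 libraries alone called 0 (1124 at an unadjusted p under 0.05). For the difference of steps DESeq2's size factors and upper-quartile scaling each called 19, no filter 18, voom 13 (11 shared, without *Per1*, *Per2* and *Prkaa2*) and the recovered reads 14, of which 13 were shared. With single libraries left out the called genes numbered 1 to 17, those with a difference of steps 7 to 23 (not all with the higher value across lights on without ZT18 replicate C, 22 of 23, or ZT6 replicates A, B and C, 13 of 16, 11 of 12 and 15 of 17), and those with an interval inside a log2 difference of 1 from 5988 to 8060.

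Leaving out ZT22 libraries B and C (high telencephalic markers) or ZT2 libraries A and B (high *Ttr*) was chosen after seeing the data, and the lone library is then assumed to vary like the other groups. The genes called were 0 in both, the differences of steps 2 and 5, and the intervals inside a log2 difference of 1 numbered 3952 and 4303.

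Replicate letters were also tried as a block. Deviations of same-letter libraries had correlations of -0.195, -0.0147 and -0.0429 across 15371 genes, and those of different letters ran from -0.199 to 0.208. No pairing by letter was seen. Deviations from a mean of 3 libraries are tied to each other, so they cannot show whether letters mark a shared step. With the block 4 genes were called (not *Rgs16* and *Sik1*) and 13 for the difference of steps, and 1 (*Prok2*) in a paired fit of the 6 libraries alone.

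Of 4666 values of 152 named genes under the alternatives, 4531 kept direction and side of the threshold, 76 passed it and 59 missed it, and none reversed where called. The cause was not tested. The median SE of a log2 difference was 0.46 over all genes and 0.29 over those of at least 5 CPM.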

Other observations

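The authors' normalised table lists further genes that the count table does not hold. Of these, 2171 were tested on their recovered reads, and edgeR called 0 of them between ZT2 and ZT22 (smallest q 0.449), with 59 (2.72%) at an unadjusted p under 0.05.

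Summed oligodendrocyte markers were 2712, 2254 and 4561 CPM in the ZT2 libraries and 2311, 3143 and 2908 CPM in the ZT22 libraries, and astrocyte markers 6179, 5595 and 4961 CPM against 4429, 5071 and 5452 CPM. Markers of neighbouring hypothalamic neurons were low throughout, at 18.0–27.6 CPM at ZT2 and 20.2–58.6 CPM at ZT22, with the highest value in ZT22 library A. Microglial markers summed to 344–402 CPM at ZT2 and 343–444 CPM at ZT22, with all ZT22 libraries above all ZT2 libraries in 3 of 10 (5.98% of all genes). Blood markers summed to 141–344 CPM and 174–252 CPM, and among the 3 tested *Alas2* had means of 26.3 and 10.4 CPM (unadjusted p = 0.0398, q = 1 by edgeR).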
